A study of Mus musculus with 6 samples.

Results

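The genes of fatty acid oxidation and ketone body use were followed in heart ventricle of mouse embryos at embryonic day 17.5, in 3 libraries labelled Prox1 conditional null and 3 control libraries. The set holds 35 genes chosen by name for their roles, with earlier results of these data known, out of 25006 genes listed in the files. All 35 were found, and all 35 were among the 14815 genes that passed the filter on low counts and were tested. The null-labelled libraries carry the genotype label VecadcreERT2; Prox1f/f, in which a tamoxifen-inducible Cre driven by the VE-cadherin promoter acts in endothelial cells on floxed Prox1 alleles. The control libraries carry the genotype label WT, and whether those embryos had floxed alleles is not stated. Both groups share the NMRI background and the breeding scheme, in which Prox1 f/f females were mated with males that carry the Cre and floxed alleles, and the labels give 1 tamoxifen protocol for both. The dose was 5 mg for each 40 g that a dam weighed, given at E13.5 and again at E14.5. Cre is named for the null-labelled libraries only, so an effect of Cre and an effect of Prox1 loss cannot be told apart. The series asks which pathways of the developing heart depend on the cardiac lymphatic vessels, whose identity is set by the transcription factor Prox1.

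Fatty acids enter cardiomyocytes through transporters, are bound by a cytosolic carrier and activated to acyl-CoA. The carnitine shuttle then carries them into mitochondria, where each turn of beta-oxidation shortens the chain and passes electrons to the respiratory chain. Ketone bodies take a shorter route, from 3-hydroxybutyrate through acetoacetate to acetyl-CoA. The fetal heart relies largely on glucose and lactate, and fatty acid oxidation becomes its main fuel pathway after birth.

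Total counts ranged from 35195544 to 44330594 per library, and levels are given as CPM, the counts set to a common library size and scaled by the trimmed mean of M values (TMM), for replicates 1, 2 and 3 of each group in that order. Prox1 had 6581, 5809 and 6924 counts in null-labelled libraries, against 6549, 5164 and 5265 counts in control libraries, or 164, 159.8 and 168 CPM in null-labelled against 149, 143 and 149 CPM in control libraries. Prox1 was called higher in null-labelled libraries (log2 fold change 0.15 ± 0.034 SE, edgeR adjusted p = 0.0331), opposite to the loss that the label names, and the group is called null-labelled throughout. Bulk counts sum all cell types, while the Cre acts in endothelial cells, so these values cannot show whether Prox1 was lost in those cells. Esr1, part of whose human counterpart is built into the CreERT2 protein, had 298, 244 and 290 counts in null-labelled libraries, against 14, 9 and 19 counts in control libraries; whether these reads come from the transgene was not tested. Null-labelled replicates 1 and 3 carried both Y-linked transcripts (229 and 241 CPM in sum) and Xist (44.7 and 139 CPM), while in each control library one of them was low, the Y-linked sum in replicate 3 (4.95 CPM) and Xist in replicates 1 and 2 (0.636 and 0.806 CPM). The 13 mitochondrial genes listed stood at 0 in every library. The labels do not say whether libraries came from separate embryos, so a p-value here reflects the scatter among these 6 libraries and no more. In bulk tissue, fewer cells of a type and less RNA per cell cannot be told apart.

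Most genes of the pathway differed little between the groups, and the 2 genes that passed the test were a regulator and an enzyme of ketone use. Ppargc1a, the coactivator PGC-1 alpha that drives mitochondrial and oxidative genes, was higher in null-labelled ventricles by 21.7%. Bdh1, the enzyme that starts the use of 3-hydroxybutyrate, was lower by 32.8%. None of the 20 enzymes and electron carriers from the carnitine shuttle to the electron transfer flavoprotein passed the test, and for each of them the 95% confidence interval of the fold change reached at most 1.15-fold in either direction.

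Of the 35 genes, 1 was called higher and 1 lower with edgeR (its quasi-likelihood F test) at an adjusted p under 0.05, or 5.71% of the genes, where 5.41% of all 14815 genes tested were called (2.43% higher and 2.98% lower). An unadjusted p under 0.05 was reached by 6 of the 35, or 17.1%, where 20.5% of all genes reached it. The 3 null-labelled and 3 control values did not overlap for 8 of the 35 (22.9%), 5 of them higher and 3 lower in null-labelled libraries, where 26.6% of all genes tested did not overlap (12.7% higher and 13.9% lower). These shares stood near those of all genes. The median log2 fold change was 0.03 over the 35 genes and -0.00396 over all genes tested, with 24 of the 35 above 0. The median absolute log2 fold change was 0.0655 over the 35 genes and 0.0895 over all genes tested.

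The size of change that the data leave possible was read from the 95% confidence interval of each gene, which is not adjusted for the number of genes. For 29 of the 35 genes (82.9%) the whole interval lay within 1.2-fold in either direction, where 49.6% of all genes tested met this, and for 33 of the 35 it lay within 1.5-fold, where 76.4% of all genes did. The median standard error (SE) of the log2 fold change was 0.0496 over the 35 genes and 0.0707 over all genes tested. Acads had the narrowest bound, 1.06-fold. The 6 genes whose intervals reached past 1.2-fold were Ppargc1a, Bdh1, Oxct1, Acot13, Slc27a1 and Ucp3.

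**Figure D1:**
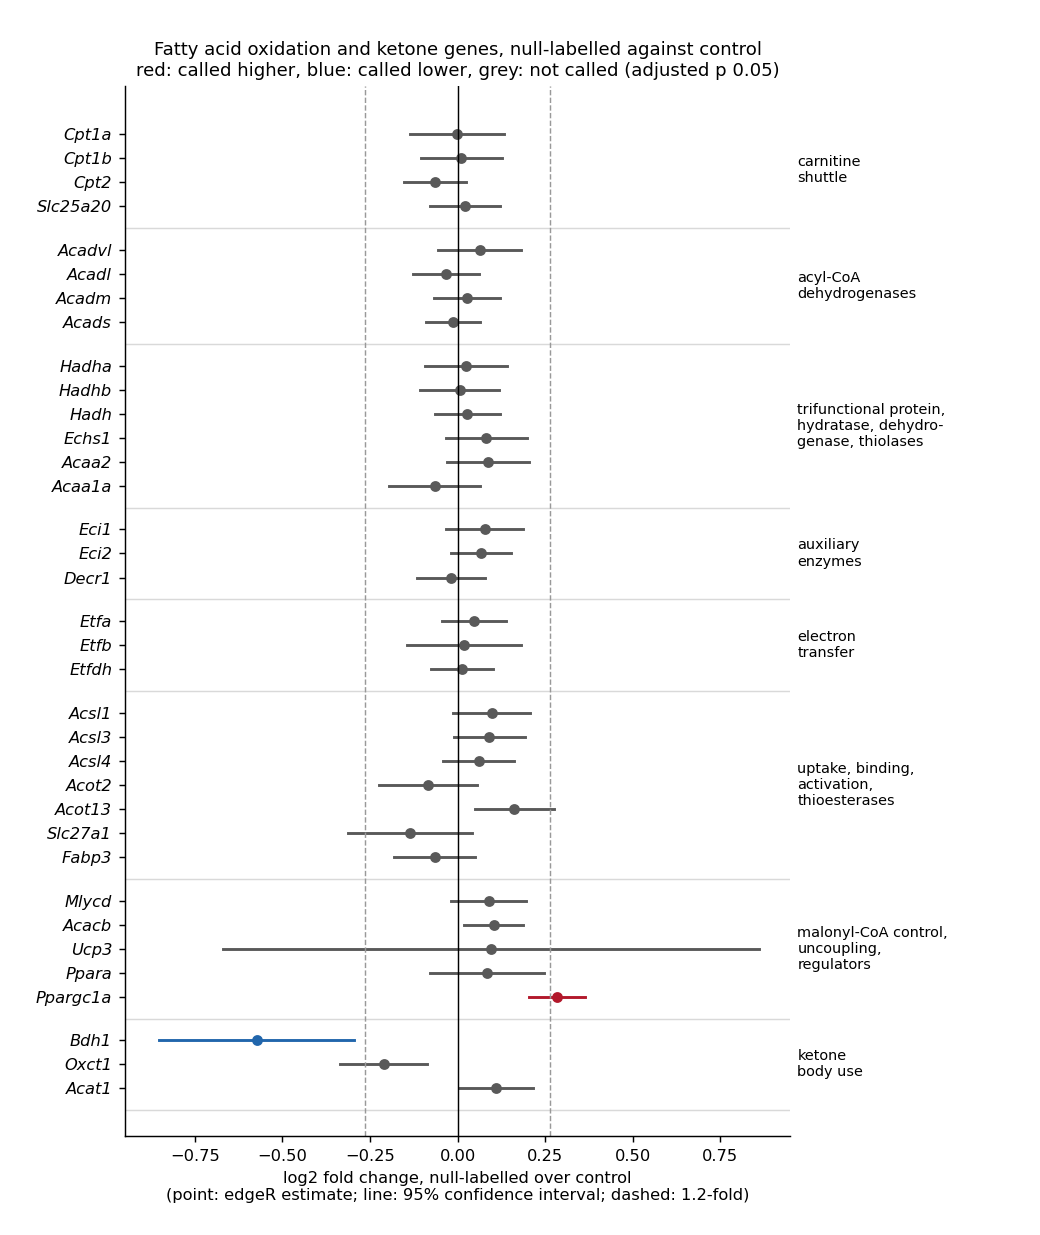
Each point is the log2 fold change of a gene, null-labelled over control, from edgeR with 3 libraries per group, and each line its 95% confidence interval; dashed lines mark 1.2-fold in either direction. The intervals of 29 of the 35 genes lie between the dashed lines, Ppargc1a (0.28) is called higher, Bdh1 (-0.57) is called lower, and Ucp3 has the widest interval.

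Uptake, binding and activation held 7 genes, and none was called. Fabp3, the cytosolic fatty acid carrier of heart muscle, had 291, 264 and 279 CPM in null-labelled libraries, against 301, 298 and 274 CPM in control libraries. The groups overlapped, since control replicate 3 lay below null-labelled replicates 1 and 3, and the interval of the change ran from -11.8% to 3.53%. Acsl1, the main acyl-CoA synthetase of the heart, averaged 583 ± 11.4 CPM in null-labelled and 545 ± 33.2 CPM in control libraries (SD, n = 3). Its log2 fold change, 0.10 ± 0.050 (SE), had an edgeR adjusted p = 0.307. The 2 other synthetases, Acsl3 of lipid droplets and the endoplasmic reticulum and Acsl4, which prefers arachidonate, had log2 fold changes of 0.09 and 0.06. By counts per kb of exon, Acsl1 made up 72.6 ± 0.995% of the 3 synthetases in null-labelled and 72.4 ± 0.584% in control libraries (SD, n = 3), with an exact two-sided permutation p = 0.8, where 0.1 is the smallest p that 3 against 3 allows.

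Acot13, a thioesterase that splits long-chain acyl-CoA back to free fatty acid, had 140.3, 140.1 and 143 CPM in null-labelled libraries, against 126, 136 and 117 CPM in control libraries. All 3 null-labelled libraries lay above all 3 control libraries. The log2 fold change of 0.16 ± 0.050 (SE) had an edgeR adjusted p = 0.1004 and missed the threshold. Without control replicate 2, the highest control, it was 0.22 with edgeR adjusted p = 0.0395, the only 1 of 15 alternatives in which Acot13 was called. With any other single library left out, the edgeR adjusted p lay between 0.158 and 0.259. Acot2, a mitochondrial thioesterase, had a log2 fold change of -0.09, and 27.7% of its 50-base words are shared with its neighbour Acot1. Slc27a1, a fatty acid transport protein of the plasma membrane, had a log2 fold change of -0.14 and an interval from -19.4% to 2.93%.

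The carnitine shuttle held 4 genes, and none was called. Cpt1b, the muscle form of the outer-membrane carnitine palmitoyltransferase that commits fatty acids to the mitochondrion, had 605, 603 and 570.3 CPM in null-labelled libraries, against 629.7, 573 and 563 CPM in control libraries. Cpt1a, the liver form of the same enzyme, had 144, 135 and 132 CPM in null-labelled libraries, against 135, 127 and 149 CPM in control libraries. Both genes overlapped between the groups, and their intervals ran from -7.02% to 9.10% for Cpt1b and from -8.97% to 9.57% for Cpt1a. The log2 fold change of Cpt1a was -0.00185 and crossed 0 under other scalings.

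The balance of the muscle and liver forms was also measured. Per kb of exon, Cpt1b made up 86.6 ± 0.349% of both forms in null-labelled and 86.5 ± 1.32% in control libraries (SD, n = 3), with an exact two-sided permutation p = 1. In control libraries the share lay between 85.0% and 87.4%, a range that took in every null-labelled value. Of the 50-base words of Cpt1b, 80.4% also occur in a transcript annotated as Gm44502, which is not among the genes listed in the files. How reads of these words were counted is not given, so the share is uncertain. Cpt2, the inner-membrane partner, averaged 73.6 ± 1.06 CPM in null-labelled and 76.9 ± 2.27 CPM in control libraries, and its groups did not overlap; its log2 fold change of -0.06 had adjusted p = 0.403 by edgeR, with a lower bound of -10.1%. Slc25a20, the carnitine/acylcarnitine carrier of the inner membrane, had a log2 fold change of 0.02 and an interval from -5.31% to 8.79%.

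The 4 acyl-CoA dehydrogenases carry out the opening step of each turn on very long, long, medium and short chains. Acadm, the medium-chain enzyme, had 421, 423 and 409.9 CPM in null-labelled libraries, against 429, 399.9 and 402 CPM in control libraries. The control values spanned all of the null-labelled values. Its log2 fold change was 0.03 ± 0.042 (SE), with an interval from -4.52% to 8.76%. Acadl, the long-chain enzyme, and Acads, the short-chain enzyme, had log2 fold changes of -0.03 and -0.01. Acadvl, the very-long-chain enzyme, had 0.06, and 42.9% of its exon bases lie under Dvl2 on the opposite strand. The strand setting of the counting is not given, so for reads over those shared bases the 2 genes cannot be told apart.

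Hydration, oxidation and cleavage of the chain are carried out by the trifunctional protein on long chains and by Echs1, Hadh and the thiolases on shorter ones. Hadha, its alpha subunit, had 935, 869.6 and 868 CPM in null-labelled libraries, against 933, 849 and 846 CPM in control libraries. Replicate 1 was the highest of each group, and the groups overlapped. The log2 fold change was 0.02 ± 0.052 (SE), with an interval from -6.17% to 10.2%. Hadhb, the beta subunit with thiolase activity, had a log2 fold change of 0.01 and an interval from -7.23% to 8.64%. Per kb of exon, Hadha stood 8.04 times as high as Hadhb in null-labelled and 7.94 times as high in control libraries, though the subunits assemble into 1 complex; 57.5% of the 50-base words of Hadhb are shared with the processed pseudogenes Gm13910 and Gm9108, so the level of Hadhb is uncertain.

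Within the same group of 6 genes, Echs1, the short-chain enoyl-CoA hydratase, had a log2 fold change of 0.08, and Hadh, the hydroxyacyl-CoA dehydrogenase, had 0.03. Acaa2, the mitochondrial thiolase, had the largest bound of the 20 core genes, an interval from -2.10% to 15.1%. The peroxisomal thiolase Acaa1a had a log2 fold change of -0.07, and 26.7% of its 50-base words are shared with Acaa1b. Unsaturated chains need further enzymes, of which Eci1 and Eci2, the enoyl-CoA isomerases, had log2 fold changes of 0.08 and 0.07. Decr1, the dienoyl-CoA reductase, had -0.02. Electrons leave the dehydrogenases through Etfa and Etfb, the flavoprotein subunits, and Etfdh, which hands them to ubiquinone. For these 3 genes the log2 fold changes were 0.05, 0.02 and 0.01, and the widest of their intervals, that of Etfb, ran from -9.47% to 13.3%. Etfb shares 57.7% of its 50-base words with a transcript annotated as Gm45233, which is not among the genes listed in the files.

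Control of entry into the shuttle runs through malonyl-CoA, which inhibits the carnitine palmitoyltransferases. Acacb, the acetyl-CoA carboxylase that makes malonyl-CoA at the mitochondrial surface, had 255, 254 and 263 CPM in null-labelled libraries, against 246, 239 and 233 CPM in control libraries. All null-labelled values lay above all control values. For Acacb, the log2 fold change of 0.10 ± 0.038 (SE) had an edgeR adjusted p = 0.154, and the interval ran from 1.33% to 13.9%. Mlycd, the decarboxylase that removes malonyl-CoA, averaged 38.0 ± 1.22 CPM in null-labelled and 35.7 ± 1.29 CPM in control libraries, also without overlap, with a log2 fold change of 0.09 and adjusted p = 0.330.

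Ucp3, a mitochondrial carrier of muscle, was the lowest gene of the set. It had 26, 13 and 15 counts in null-labelled libraries, against 15, 16 and 18 counts in control libraries. The groups overlapped, and the interval from -37.1% to 81.6% was the widest of the 35, so a change of moderate size was not detectable at this depth. Ppara, the nuclear receptor that senses fatty acids and binds DNA with Rxra, had 37.4, 34.1 and 37.8 CPM in null-labelled libraries, against 34.7, 31.0 and 37.6 CPM in control libraries. Its groups overlapped across nearly the same range, with a log2 fold change of 0.08 ± 0.073 (SE) and an interval from -5.36% to 18.6%.

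Ppargc1a lies on chromosome 5, from 51454250 to 51567726 on the minus strand of GRCm38. Its RefSeq promoter, the 250 bases before the gene start in build GRCm38.p6, is shown because Ppargc1a is the regulator of the set that changed.
Ppargc1a, chr5:51567726-51567975, minus strand: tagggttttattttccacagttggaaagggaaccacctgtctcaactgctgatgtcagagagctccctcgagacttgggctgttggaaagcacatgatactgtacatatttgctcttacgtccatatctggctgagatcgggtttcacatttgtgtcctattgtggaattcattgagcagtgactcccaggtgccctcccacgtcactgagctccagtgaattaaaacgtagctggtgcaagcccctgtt

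The gene had 284, 298 and 291 CPM in null-labelled libraries, against 238, 239 and 241 CPM in control libraries. The 3 control values lay within a few CPM of each other, and every null-labelled library stood above them. On the log2 scale the change was 0.28 ± 0.036 (SE), or 1.22-fold with an interval from 1.15 to 1.29, and the edgeR adjusted p was 0.00384. The call held in 14 of 15 alternative analyses and was lost when null-labelled replicates 1 and 3, the libraries with both Y-linked transcripts and Xist, were left out together (log2 fold change 0.32, adjusted p = 0.0981, with 1 null-labelled library remaining). The summed level of 15 cardiomyocyte markers lay between 93580 and 95229 CPM in null-labelled and between 89251 and 97446 CPM in control libraries. The groups overlapped in that sum, and 1 of these markers, Actc1, was called lower. Their part in the change of Ppargc1a was not tested. Ppara, Esrra and the 20 core enzymes and carriers, known to act with or downstream of PGC-1 alpha, were not called. The regulators Lpin1 (log2 fold change 0.50) and Rxra (0.23), given below, were called higher.

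Ketone body use held 3 genes. Each had an unadjusted p under 0.05 (20.5% of all genes tested) and no overlap between the groups (26.6% of all genes tested), with 2 lower and 1 higher in null-labelled libraries. Bdh1 (chromosome 16, 31422280 to 31458901, plus strand, GRCm38) has 2 RefSeq promoters and Oxct1 (chromosome 15, 4026383 to 4155344, plus strand) has 1. They are shown because these are the 2 ketone genes with lower values, and the capitals in the promoter of Bdh1 mark 9 bases that match the ERR element, a site of estrogen-related receptors, with 1 mismatch.
Bdh1, chr16:31422047-31422296, plus strand: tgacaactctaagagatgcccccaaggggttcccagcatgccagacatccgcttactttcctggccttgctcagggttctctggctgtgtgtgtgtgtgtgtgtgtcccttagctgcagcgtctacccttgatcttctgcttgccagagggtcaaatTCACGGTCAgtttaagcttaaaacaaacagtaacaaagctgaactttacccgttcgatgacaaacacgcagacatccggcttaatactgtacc
Bdh1, chr16:31428503-31428752, plus strand: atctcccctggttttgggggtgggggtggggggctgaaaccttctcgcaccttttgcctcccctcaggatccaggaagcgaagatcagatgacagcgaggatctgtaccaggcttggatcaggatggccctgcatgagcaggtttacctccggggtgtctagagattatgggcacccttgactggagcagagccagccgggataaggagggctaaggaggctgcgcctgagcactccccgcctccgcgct
Oxct1, chr15:4026178-4026427, plus strand: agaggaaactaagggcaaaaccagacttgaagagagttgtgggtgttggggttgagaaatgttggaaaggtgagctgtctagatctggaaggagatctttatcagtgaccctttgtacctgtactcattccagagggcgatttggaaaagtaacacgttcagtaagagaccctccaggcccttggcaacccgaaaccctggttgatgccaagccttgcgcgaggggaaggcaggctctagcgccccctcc

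Bdh1, the mitochondrial 3-hydroxybutyrate dehydrogenase, had 8.88, 7.81 and 8.35 CPM in null-labelled libraries, against 11.6, 10.8 and 15.0 CPM in control libraries. The groups did not overlap, and control replicate 3 stood above the other two controls. On the log2 scale the change was -0.57 ± 0.124 (SE), a change of -32.8% with an interval from -44.6% to -18.5%, and the edgeR adjusted p was 0.0312. Without control replicate 3 the log2 fold change was -0.42 with adjusted p = 0.0320. The call was lost without null-labelled replicate 1, 2 or 3 (adjusted p = 0.0760, 0.119 and 0.107), without null-labelled replicates 1 and 3 together (0.336) and with limma-voom (0.0530), and it held in 10 of 15 alternatives. Control replicate 3 also had the highest level of Alb, a liver transcript, at 9.11 CPM, and the summed level of 10 liver markers lay between 8.80 and 11.3 CPM in null-labelled and between 3.36 and 24.8 CPM in control libraries; their part in the result was not tested.

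Oxct1, the succinyl-CoA transferase that activates acetoacetate outside the liver, had 564, 517 and 582 CPM in null-labelled libraries, against 652, 607 and 667 CPM in control libraries. Every null-labelled library lay below every control library. The log2 fold change of -0.21 ± 0.055 (SE), a change of -13.6% with an interval from -20.7% to -5.92%, had an edgeR adjusted p = 0.0577 and missed the threshold. It passed in 3 of 15 alternatives: with DESeq2 (adjusted p = 0.00590), with no filter on low counts (edgeR adjusted p = 0.0360) and with a term for replicate number (edgeR adjusted p = 0.0458). It missed the threshold with limma-voom (adjusted p = 0.0669) and with a sex term (edgeR adjusted p = 0.0731). With any 1 library left out it also missed, at edgeR adjusted p from 0.0615 to 0.192. Acat1, the thiolase that yields acetyl-CoA from acetoacetyl-CoA, had 440.3, 444 and 438 CPM in null-labelled libraries, against 425, 420.1 and 382 CPM in control libraries. Its null-labelled values were higher and close together, and control replicate 3 was the lowest of all. Its log2 fold change of 0.11 ± 0.047 (SE) had an edgeR adjusted p = 0.232, and the interval ran from 0.218% to 16.0%. Neither Bdh1, Oxct1 nor Acat1 shares a 50-base word with another annotated transcript.

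**Figure D2:**
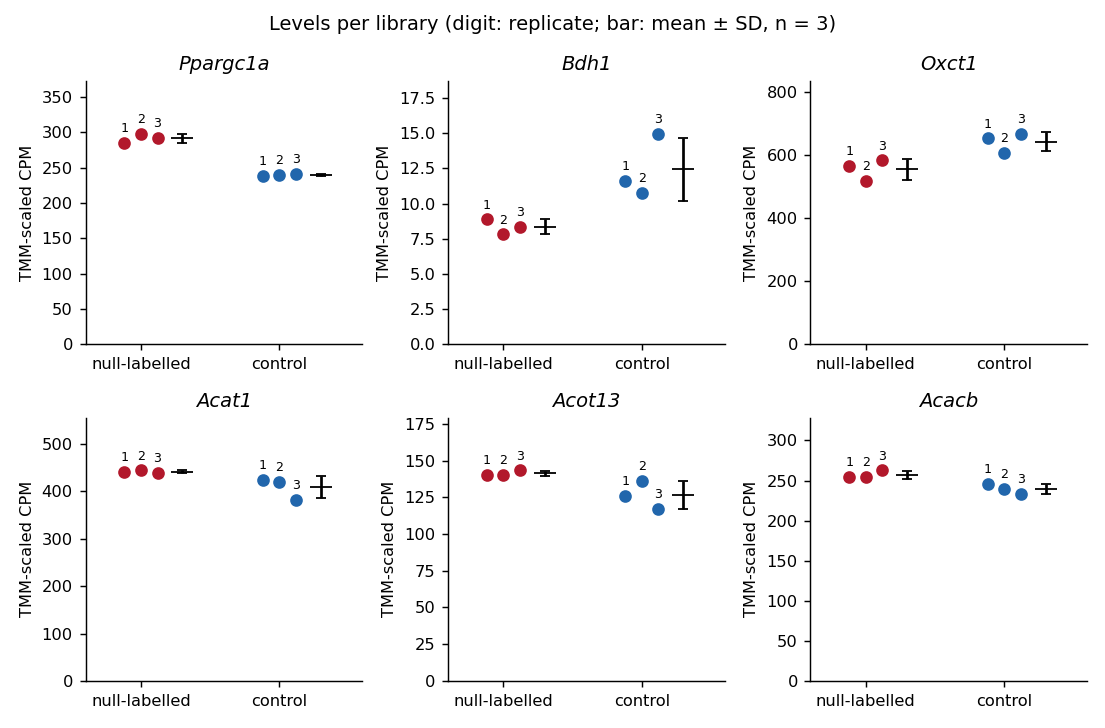
TMM-scaled CPM of Ppargc1a, Bdh1, Oxct1, Acat1, Acot13 and Acacb, the 6 genes with an unadjusted p under 0.05, in each null-labelled and control library, with the mean and SD (n = 3) beside each group; axes start at 0. In each panel the 3 null-labelled points lie on 1 side of the 3 control points, and control replicate 3 of Bdh1 stands apart at 15.0 CPM.

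Promoters were searched on both strands for elements tied to this pathway. RefSeq windows of 250 bases before to 50 bases after the gene start were given for 30 of the 35 genes, 34 windows in all, out of 32851 windows. The DR1 element AGGTCANAGGTCA, at which PPAR and RXR bind as a pair, was in none of the 34 windows, exactly or with 1 mismatch, and in 0.0396% and 0.554% of all windows. The ERR element TCAAGGTCA, which contains the repeat AGGTCA of DR1, was in none of the 34 exactly (0.423% of all windows) and with 1 mismatch in the Bdh1 window alone, 93 bases before the start (7.46% of all windows). The cyclic AMP response element TGACGTCA, added because Ppargc1a is a classic target of that signal, was searched for exact matches only. It was in none of the 34 and in 1.79% of all windows. Shorter or imperfect forms of it were not searched, so whether the Ppargc1a promoter holds such a form was not tested. A match is a description of letters and not a bound site, and the absence of these letters says nothing of sites outside the windows or with other letters.

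Levels were compared between genes per kb of exon. Acadl was the highest of the set, at 496 ± 8.53 CPM per kb in null-labelled and 508 ± 19.0 CPM per kb in control libraries (SD, n = 3), and stood 1.40-fold above the next gene in null-labelled libraries. Acaa2, Fabp3 and Etfb followed at 353 ± 13.8, 338 ± 16.9 and 327 ± 17.7 CPM per kb in null-labelled libraries, and at 333 ± 19.7, 354 ± 18.2 and 323 ± 30.4 CPM per kb in control libraries. Of these, Acaa2 had the highest mean in null-labelled and Fabp3 in control libraries. At the low end stood Ppara (10.3 CPM per kb in null-labelled and 9.72 in control libraries), Bdh1 (2.29 and 3.41) and Ucp3 (0.186 and 0.176). The 35 genes together took 0.904%, 0.883% and 0.883% of all counts in null-labelled libraries, against 0.905%, 0.867% and 0.855% in control libraries, and the groups overlapped.

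**Figure D3:**
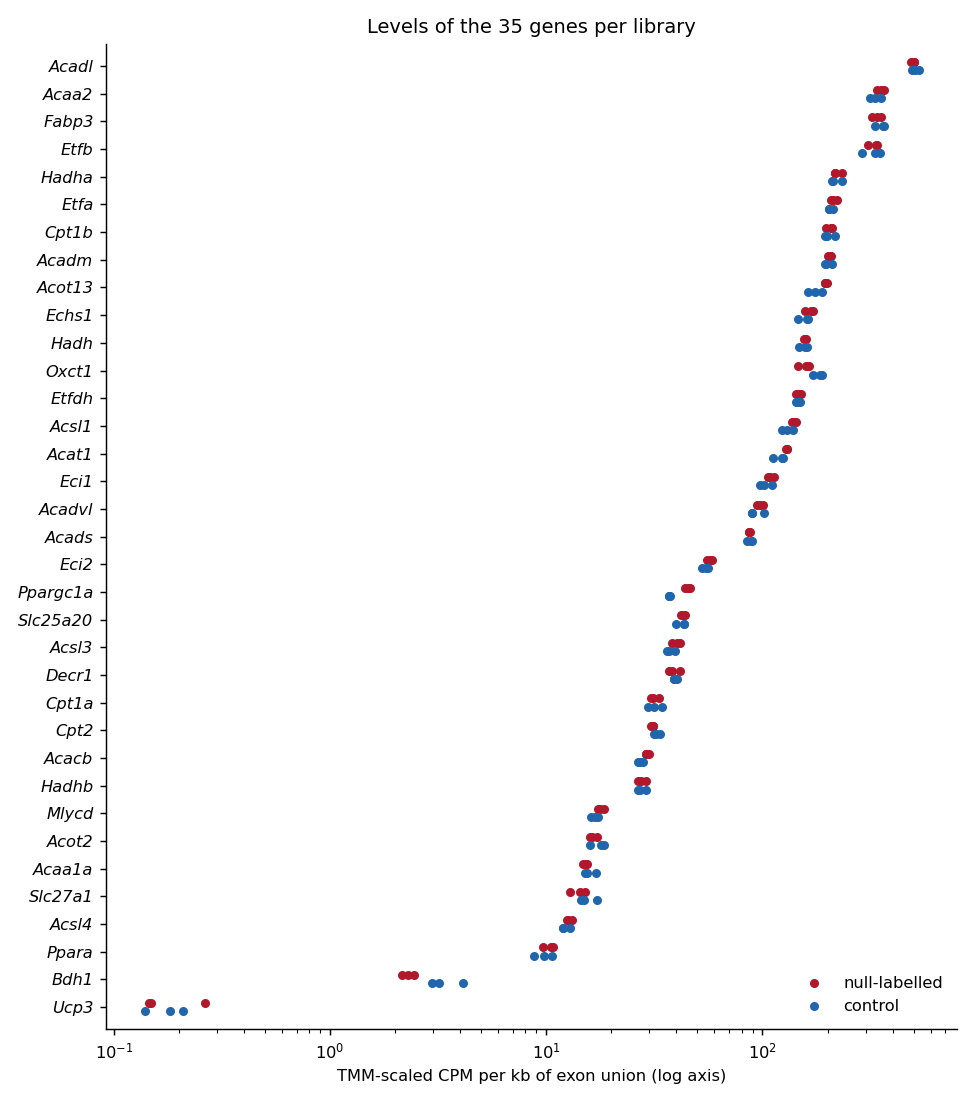
TMM-scaled CPM per kb of exon on a log axis for the 35 genes in each of 3 null-labelled and 3 control libraries, sorted by level. Levels run from Ucp3 (below 1) to Acadl (about 496 in null-labelled and 508 in control libraries), and for most genes the points of both groups lie on top of each other.

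The wider pathway was read from 6 further lists with 132 different genes tested, of which 7 were called, against the 5.41% of all genes. Of 43 other genes of mitochondrial and peroxisomal beta-oxidation, 1 was called, higher, and the median log2 fold change was 0.03. An unadjusted edgeR p under 0.05 was reached by 8 of the 43 (18.6%), where 20.5% of all genes tested reached it. Scp2, the sterol carrier protein with a peroxisomal thiolase form, had 37.7, 36.8 and 37.8 CPM in null-labelled libraries, against 33.0, 31.8 and 32.6 CPM in control libraries, and edgeR gave 0.20 ± 0.042 (SE) as log2 fold change, adjusted p = 0.0258. The call of Scp2 was lost without control replicate 1 or 2 (adjusted p = 0.0591 and 0.0880) and without null-labelled replicate 1, 2 or 3 (0.0854, 0.0827 and 0.0964), and it held in 8 of 15 alternatives. The 21 enzymes of the citric acid cycle, which burns the acetyl-CoA of both routes, had 0 calls by edgeR, where 5.41% of all genes tested were called. Of the 21, 1 (4.76%) had an unadjusted p under 0.05, where 20.5% of all genes tested did. Their intervals all lay within 1.2-fold, where 49.6% of all genes tested met this. Of 9 tested genes of ketone synthesis, transport and reception, 0 were called and 1 (11.1%) had an unadjusted p under 0.05.

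Lipid supply was the list with most calls, 1 higher and 3 lower of 24 tested (16.7%, where 5.41% of all genes tested were called), with a median log2 fold change of 0.00721. An unadjusted edgeR p under 0.05 was reached by 8 of the 24 (33.3%), where 20.5% of all genes tested reached it. The groups did not overlap for 8 of the 24 (33.3%), 3 higher and 5 lower, where 26.6% of all genes tested did not overlap. Fabp4, a lipid chaperone of capillary endothelium, adipocytes and macrophages, had 253, 213 and 229 CPM in null-labelled libraries, against 418, 367 and 381 CPM in control libraries. Every null-labelled library lay far below every control library, and the log2 fold change of -0.75 ± 0.072 (SE), with edgeR adjusted p = 0.00175, was called in 15 of 15 alternatives. Mgll, the monoacylglycerol lipase, had 131, 141 and 138 CPM in null-labelled libraries, against 184, 165 and 162 CPM in control libraries (log2 fold change -0.32 ± 0.052 SE, edgeR adjusted p = 0.0123). Dbi, the acyl-CoA binding protein, had 120.1, 129 and 135 CPM in null-labelled libraries, against 152, 145 and 142 CPM in control libraries (log2 fold change -0.19 ± 0.047 SE, adjusted p = 0.0458). Dgat2, which makes triacylglycerol for storage, was the gene called higher, with 54.2, 56.4 and 61.0 CPM in null-labelled libraries, against 49.7, 44.03 and 44.2 CPM in control libraries (log2 fold change 0.32 ± 0.063 SE, adjusted p = 0.0219). For these 3 genes the groups did not overlap. The call of Mgll was lost without null-labelled replicate 3 (adjusted p = 0.0530), and that of Dgat2 without control replicate 2 (0.0784) or null-labelled replicate 2 or 3 (0.0728 and 0.0842). They held in 13 and 10 of 15 alternatives. Without null-labelled replicates 1 and 3 together, Scp2, Mgll, Dgat2 and Dbi lost their calls (0.443, 0.329, 0.312 and 0.376). Dbi lost its call without control replicate 1 or 2 (0.123 and 0.105) and without null-labelled replicate 1, 2 or 3 (0.140, 0.142 and 0.0546), and also with DESeq2 size factors (0.0530), limma-voom (0.0703) and a sex term (0.0725), and held in 5 of 15 alternatives. Cd36, the fatty acid transporter of endothelium and cardiomyocytes, had 588, 528 and 539 CPM in null-labelled libraries, against 695, 555 and 585 CPM in control libraries. Its groups overlapped, and the log2 fold change of -0.15 ± 0.086 (SE) had adjusted p = 0.383.

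Of 28 regulators, 2 were called (7.14%, where 5.41% of all genes tested were), both higher, with a median log2 fold change of 0.02. An unadjusted edgeR p under 0.05 was reached by 11 of the 28 (39.3%), where 20.5% of all genes tested reached it. The groups did not overlap for 10 of the 28 (35.7%), 7 higher and 3 lower, where 26.6% of all genes tested did not overlap. Lpin1, a phosphatidate phosphatase that in mouse liver also acts as a coactivator with PGC-1 alpha and PPAR alpha, had 52.1, 53.7 and 52.2 CPM in null-labelled libraries, against 35.7, 37.4 and 39.0 CPM in control libraries. The groups were far apart, with a log2 fold change of 0.50 ± 0.047 (SE) and edgeR adjusted p = 0.000818. Rxra, the retinoid X receptor that pairs with the PPARs, had 119, 117 and 123 CPM in null-labelled libraries, against 104, 100.2 and 103 CPM in control libraries, and edgeR gave 0.23 ± 0.035 (SE) as log2 fold change, adjusted p = 0.00916. Both calls were lost only without null-labelled replicates 1 and 3 together, among 15 alternatives (adjusted p = 0.0564 for Lpin1 and 0.307 for Rxra). Esrra, the receptor ERR alpha that works with PGC-1 alpha, had 90.8, 93.4 and 95.1 CPM in null-labelled libraries, against 100.5, 94.1 and 87.3 CPM in control libraries. Its control values spanned all null-labelled values, with a log2 fold change of -0.01 and an interval from -8.53% to 7.25%.

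Of 19 tested targets of PPAR alpha, 0 were called by edgeR, where 5.41% of all genes tested were, and the median log2 fold change was 0.05. Of the 19, 3 (15.8%) had an unadjusted p under 0.05, where 20.5% of all genes tested did. Pdk4, the kinase that turns off pyruvate dehydrogenase when fat is burned, had 85.0, 84.3 and 74.8 CPM in null-labelled libraries, against 78.7, 68.9 and 83.5 CPM in control libraries. The groups overlapped, with a log2 fold change of 0.08 ± 0.078 (SE) and adjusted p = 0.634. Calls over the 6 lists depended on single libraries: 7 with all libraries became 4 without control replicate 2, 15 without control replicate 3, 4 without null-labelled replicate 2 and 3 without null-labelled replicate 3. The 801 calls over all genes became 402 without control replicate 2 and 385, 258 and 277 without null-labelled replicate 1, 2 and 3.

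**Figure D4:**
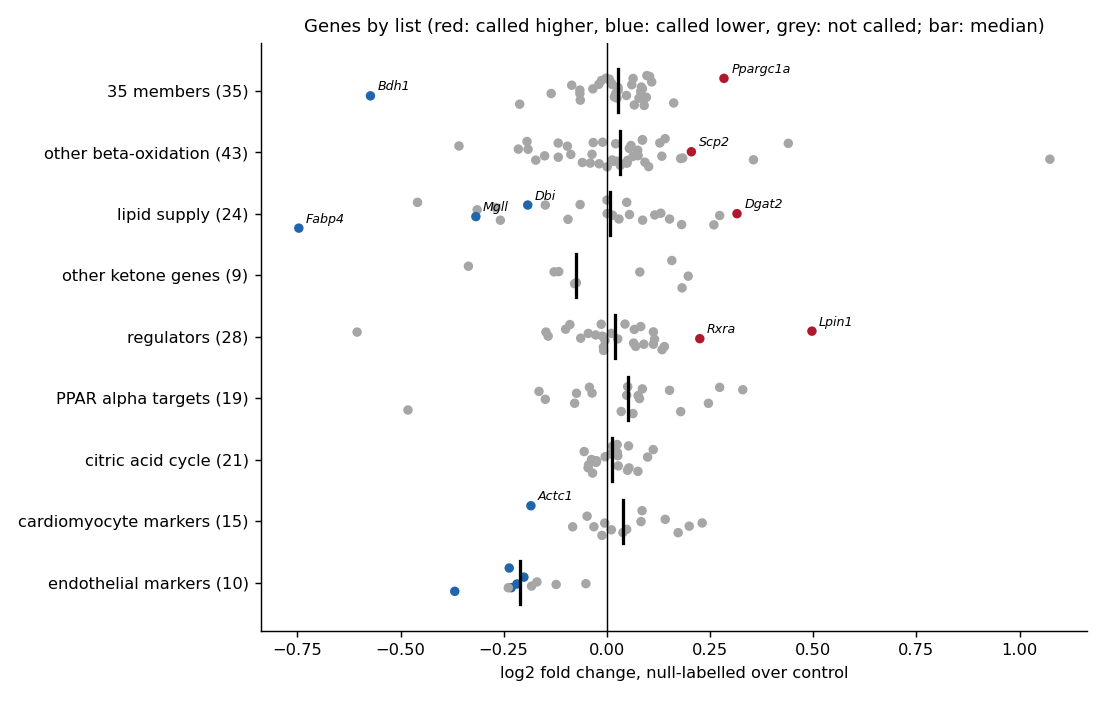
Log2 fold change, null-labelled over control, of every tested gene in the set of 35, in 6 other pathway lists and in 2 marker lists, with the number tested in brackets and the median as a bar. Named points are called genes, except that endothelial names are left out; the medians lie near 0 in all lists shown but the 10 endothelial markers (-0.21) and the 9 other ketone genes (-0.07).

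Markers of cell types in the ventricle were read beside all genes tested, of which 5.41% were called, 2.43% higher and 2.98% lower. Of 15 cardiomyocyte markers, 1 was called (6.67%), Actc1, lower with a log2 fold change of -0.18 ± 0.043 (SE) and edgeR adjusted p = 0.0401. Of the 15, 5 (33.3%) had an unadjusted edgeR p under 0.05, where 20.5% of all genes tested did. The groups did not overlap for 4 of the 15 (26.7%), 3 higher and 1 lower, where 26.6% of all genes tested did not overlap. All 10 endothelial markers had log2 fold changes below 0, and 5 were called lower (50%). Their summed level lay between 1756 and 1898 CPM in null-labelled and between 1928 and 2162 CPM in control libraries. Of these markers, Egfl7 had the lowest log2 fold change, -0.37. All 8 fibroblast markers lay above 0, and 3 were called (37.5%). Their sums were 8629 to 9610 CPM in null-labelled and 6947 to 8223 CPM in control libraries. All 8 macrophage markers lay above 0, and 5 were called (62.5%). Their sums were 97.1 to 121 CPM in null-labelled and 76.1 to 87.2 CPM in control libraries. The part of these markers in the changes of Fabp4, Mgll, Lpin1, Ppargc1a and the ketone genes was not tested.

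Among tissues that could adhere to the ventricle, brown adipocytes had 1 of 8 markers tested, and their defining gene Ucp1 was at or below 5 counts in every library. Liver had 4 of 10 markers tested, skeletal muscle 8 of 10 and erythroid cells 6 of 7 found in the files. Each had 0 calls by edgeR, where 5.41% of all genes tested were called. An unadjusted p under 0.05 was reached by 1, 0 and 2 of them, where 20.5% of all genes tested reached it. All 8 skeletal muscle markers tested had log2 fold changes above 0 (median 0.34), with sums of 1635 to 1806 CPM in null-labelled and 1485 to 1760.0 CPM in control libraries. Of the 6 erythroid markers, 5 lay below 0 (median -0.49), with sums of 355 to 399 CPM in null-labelled and 353 to 482 CPM in control libraries. Of the 4 liver markers, 3 lay below 0 (median -0.48). Of 7 atrial markers, 1 was called (14.3%), Stard10, higher with a log2 fold change of 0.37 ± 0.087 (SE) and edgeR adjusted p = 0.0398. The summed atrial level lay between 414 and 697 CPM in null-labelled and between 439 and 718 CPM in control libraries.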

How the data were processed

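RNA sequencing of 6 heart ventricle libraries was deposited by the authors as whole-number counts per Ensembl gene, without normalization. The tools named in the submitters' processing notes are DESeq2, STAR, cutadapt 1.13 and HTSeq 0.6.1p1, with build mm10. What each did, which annotation was counted and with which strand setting is not given in the sources used here. Symbols, coordinates and exon lengths came from GENCODE M21, and promoters from RefSeq (GRCm38.p6).

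Genes were filtered with filterByExpr by group, scaled by TMM and tested with the two-sided quasi-likelihood F test of edgeR 4.0.16 in R 4.3.3, with group as the only term and Benjamini-Hochberg adjustment over the 14815 genes tested. SE is the log2 fold change over the root of F, and 95% intervals use the t quantile of each gene. Total counts of 35195544 to 44330594 put 3 counts at 0.0677 to 0.0852 CPM. Counting precision covers reads, which carry no molecular identifiers. The procedure was tested on simulated data. Alternatives were other scalings and filters, DESeq2 1.42.0, limma-voom (limma 3.58.1), a term for replicate number or sex, each library left out in turn, null-labelled replicates 1 and 3 left out together, and a threshold of 0.1.

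The 35 genes and all lists were chosen with earlier results of these data known. Values per library are given for called genes, genes of the set with an unadjusted p under 0.05, and genes always named: Cpt1a, Cpt1b, Acadm, Hadha, Fabp3, Ppara, Ppargc1a, Bdh1, Oxct1, Cd36, Esrra and Pdk4, and another gene not reported here. Marker genes are named for calls or levels. No 2 libraries agreed within sampling noise.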

Additional observations from a re-analysis of the deposited data

How the results depend on the processing

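Of the 35 genes, 2 were called (1 higher, 1 lower). Calls lower in null-labelled libraries numbered 2 with no filter, with DESeq2, with the replicate block and at the 0.1 threshold, and 0 with limma-voom, where 1 gene was called in all. Without null-labelled replicates 1 and 3, 0 genes were called, 0 higher and 0 lower, 52 were called over all genes and 1 over the 6 other pathway lists; 1 null-labelled library then remains and is assumed to vary like the controls. Over the 6 lists 7 genes were called, against 11 with DESeq2 and 12 at the 0.1 threshold, where 1430 were called over all genes. Leaving out 1 library gave 258 to 942 calls over all genes, 1 to 3 calls over the 35 genes (1 to 2 higher, 0 to 1 lower), 3 to 15 over the 6 lists, 28 to 29 intervals within 1.2-fold and a median log2 fold change of 0.007554 to 0.06159. The replicate block left 570 calls over all genes and gave an adjusted p of 0.0458 for Oxct1, 0.0534 for Scp2, 0.0595 for Dgat2 and 0.108 for Dbi. Deviations of same-numbered libraries from their group means correlated at -0.0643, -0.0467 and -0.121, and those of unlike number at -0.029 to 0.0857. With 3 libraries per group, these values cannot settle whether equal replicate numbers pair the samples.

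Changes near 0 turned sign. The log2 fold change of Cpt1a was 0.002748 with DESeq2 size factors, 0.007695 with the upper quartile, 0.002757 with DESeq2, 0.0002457 with limma-voom and 0.0004662 with a sex term. Without null-labelled replicates 1 and 3, it was -0.01 for Hadha, -0.007085 for Hadhb, -0.07354 for Etfb, -0.2573 for Ucp3 and -0.01274 for Ppara, and 20 intervals lay within 1.2-fold. With 1 library left out it ranged from -0.05438 to 0.05977 for Cpt1a, -0.02094 to 0.06303 for Cpt1b, -0.01692 to 0.0418 for Slc25a20, -0.03545 to 0.002588 for Acads, -0.01125 to 0.07364 for Hadha, -0.03107 to 0.04303 for Hadhb, -0.006816 to 0.05045 for Hadh, -0.06598 to 0.01427 for Decr1, -0.05546 to 0.07764 for Etfb, -0.00312 to 0.03446 for Etfdh and -0.2444 to 0.2407 for Ucp3. The difference in the share of Cpt1b ranged from -0.6283 to 0.5943 percentage points and that of Acsl1 from -0.3603 to 0.5609. The cause was not tested. Depth limits Ucp3, which had 13 to 26 counts per library.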

Other observations

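A further 3 genes of lipid use, chosen after their values were seen, did not overlap between the groups without passing the edgeR threshold. Of all genes tested, 26.6% did not overlap. Acss1, the mitochondrial acetyl-CoA synthetase, had 68.2, 59.6 and 61.7 CPM in null-labelled libraries, against 24.5, 24.3 and 41.4 CPM in control libraries; its log2 fold change was 1.07 ± 0.243 (SE), adjusted p = 0.0888. Lpl, the lipase that frees fatty acids from circulating triacylglycerol, had 1396, 1262 and 1293 CPM in null-labelled libraries, against 1239.7, 1025.5 and 1035.5 CPM in control libraries, with adjusted p = 0.101. Pparg, the nuclear receptor of adipocytes and of some endothelial and macrophage cells, had 4.55, 3.49 and 3.83 CPM in null-labelled libraries, against 7.30, 5.89 and 4.84 CPM in control libraries, with adjusted p = 0.0685.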
